A study of Homo sapiens with 6 samples.

Results

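Messenger RNA of 10 genes that sense viral nucleic acid and switch on interferon regulatory factors (IRFs) was measured in U251 cells, an established human glioblastoma line, with stable overexpression of XLOC013218, a long noncoding RNA, and in control U251 cells. Each group had 3 libraries. The 10 genes were chosen by name: the RNA helicase sensors DDX58 (current symbol RIGI), IFIH1 and DHX58, the endosomal sensor TLR3, the adaptor MAVS, the kinase TBK1, and the transcription factors IRF1, IRF2, IRF3 and IRF7. All 10 were found by their Ensembl identifiers among the 20330 Ensembl genes of the deposited tables. Both groups were grown under the same conditions and no infection, interferon or other agent is named in the labels. The sources used here do not say what the control cells carry, or whether the overexpressing cells are 1 clone or a selected population. The series describes its replicates as biological and independent, without saying what was kept separate. The p-values therefore rest on the spread of these libraries within each group, which may not cover that between separately made cell lines. XLOC013218 itself was not analysed here.

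As background, RIG-I (the product of DDX58) and MDA5 (the product of IFIH1) bind double-stranded RNA in the cytoplasm and signal through MAVS on mitochondria, while TLR3 binds it in endosomes and signals through another adaptor, TRIF. Both routes lead to TBK1, which phosphorylates IRF3 and IRF7, and these factors enter the nucleus and start transcription of type I interferon. Interferon in turn raises the transcription of many antiviral genes, among them several of the sensors and IRF7, so the pathway feeds back on itself. Astrocytes and glioma cells are known to carry this machinery.

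Levels were given as FPKM, counts corrected for transcript length and library size, which allows levels of different genes to be compared per length. The tables hold no read totals. The steps between low values put the relative depth of the libraries at 0.763 to 0.874 in overexpressing cells and 0.76 to 1.0 in control cells, with the deepest library, control replicate 2, set to 1.0. Of 7 listed glioma cell markers, 6 were tested and 0 passed in limma, with log2 fold changes from -0.96 (GFAP) to -0.04 (NES) and a median of -0.14. GFAP, SOX2 and EGFR had all overexpression values below control, that is, 3 of 6 tested markers, beside 10.1% of all tested genes. GFAP, the astrocyte filament protein, was at 30.05, 14.36 and 20.43 FPKM in overexpressing cells, against 34.68, 45.98 and 44.13 FPKM in control cells (limma adjusted p = 0.107). SOX2 averaged 102 ± 3.37 FPKM in overexpressing cells and 116 ± 2.44 FPKM in control cells, and VIM, whose groups overlapped, averaged 3581 ± 109 FPKM in overexpressing cells and 3840 ± 222 FPKM in control cells (SD, n = 3 each). EGFR was at 23.18, 23.57 and 25.34 FPKM in overexpressing cells, against 27.51, 26.91 and 26.84 FPKM in control cells. Of 14 listed markers of microglia, lymphocytes and endothelium, 5 stood at 0 in every library, and the 14 together summed to between 2.29 and 3.01 FPKM in overexpressing cells and between 1.9 and 2.71 FPKM in control cells. PTPRC, the leukocyte antigen CD45, was at 0.65, 0.39 and 0.52 FPKM in overexpressing cells, against 0.13, 0.17 and 0.15 FPKM in control cells, and P2RY12, a microglial receptor, likewise lay above control, at no more than 0.17 FPKM. CDH5, the endothelial cadherin, lay below control, at 0.38, 0.27 and 0.31 FPKM in overexpressing cells, against 0.68, 0.55 and 0.46 FPKM in control cells. CD14, the only one of the 14 with a mean of at least 1 FPKM, overlapped between the groups, and TYROBP was at 0 throughout. The part of these marker differences in the results below was not tested.

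None of the 10 genes passed the test between overexpressing and control cells. The 3 with every overexpression value above every control value were the sensors IFIH1, DDX58 and TLR3, and the values of the other 7 overlapped. IFIH1 averaged 42.01 ± 7.91 FPKM in overexpressing cells and 27.9 ± 1.09 FPKM in control cells, and DDX58 averaged 83.3 ± 13.4 FPKM in overexpressing cells and 64.9 ± 5.10 FPKM in control cells (SD, n = 3 each). DHX58 averaged 5.18 ± 0.599 FPKM in overexpressing cells and 3.67 ± 1.08 FPKM in control cells, and TLR3 averaged 5.38 ± 1.24 FPKM in overexpressing cells and 4.11 ± 0.0872 FPKM in control cells. With limma on log2(FPKM + 1), 9 were tested, and 0 of them reached an adjusted p of 0.05, against 61 of all 11704 tested genes (0.521%). Of these 61, 37 were higher (0.316% of tested genes) and 24 lower (0.205%) in overexpressing cells, and after rescaling to TPM the split was 30 higher and 31 lower. At an unadjusted limma p of 0.05, 3 of the 9 members were higher and 0 lower, where 678 of all tested genes were higher (5.79%) and 1488 differed in either direction (12.7%). The 3 overexpression values lay above the 3 control values for DDX58, IFIH1 and TLR3, that is, for 3 of 9 tested members, as they did for 8.81% of all tested genes. No tested member had all its overexpression values below control, which was the case for 10.1% of all tested genes. The median log2 fold change of the 9 tested members was 0.09, and that of all tested genes was -0.0008. In bulk RNA, a change in the number of cells with a transcript and a change in its level per cell cannot be told apart.

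**Figure D1:**
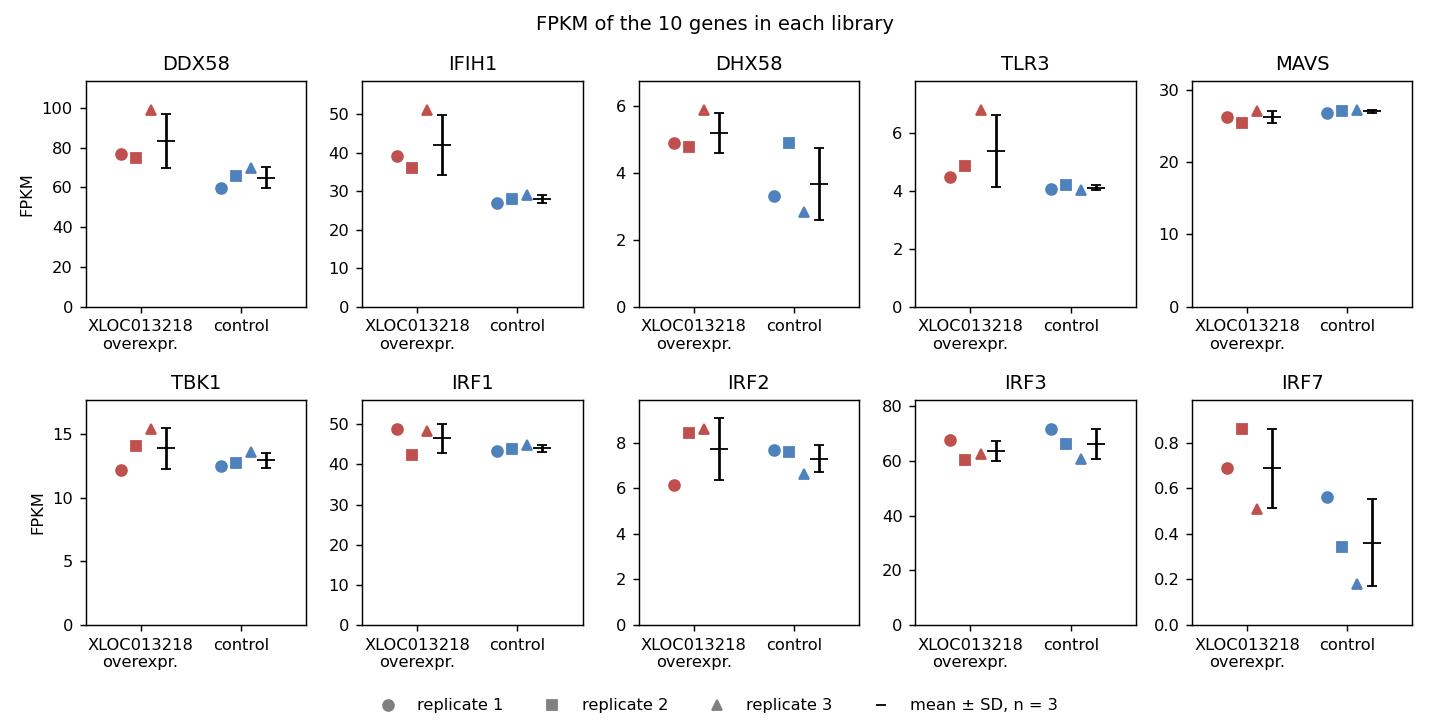
FPKM (y axes, each from 0) of the 10 genes in the XLOC013218 overexpression libraries (red, left) and the control libraries (blue, right), with the mean and SD of 3 libraries beside them. The red points of DDX58, IFIH1 and TLR3 all lie above the blue ones, those of MAVS, TBK1, IRF1, IRF2, IRF3 and IRF7 overlap them, and the DHX58 value of control replicate 2 lies among the red points.

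IFIH1 (ENSG00000115267, chromosome 2) encodes MDA5, the helicase that recognises long double-stranded RNA. Its level was 39.03, 36.03 and 50.98 FPKM in overexpression replicates 1 to 3, against 26.87, 27.87 and 29.04 FPKM in control replicates 1 to 3. Every overexpression library was above every control library, and the control libraries lay close together. The ratio of the group means was 1.504, and the log2 fold change was 0.56 (SE 0.11, 95% interval 0.31 to 0.81). No other member came nearer to the threshold (limma adjusted p = 0.0713), and 111 genes had a lower p. Over 15 alternative settings its log2 fold change ran from 0.41 to 0.66 and its limma adjusted p from 0.0285 to 0.229, and it passed with array quality weights alone.

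DDX58 (ENSG00000107201, chromosome 9) encodes RIG-I, the helicase that recognises short double-stranded RNA with a triphosphate end. Its level was 76.64, 74.62 and 98.76 FPKM in overexpressing cells, against 59.45, 65.76 and 69.55 FPKM in control cells. The groups did not overlap, although the gap between overexpression replicate 2 and control replicate 3 was smaller than the range within either group. The ratio of the means was 1.28 and the log2 fold change 0.35 (SE 0.10, 95% interval 0.11 to 0.58, limma adjusted p = 0.205). In control cells DDX58 stood above 84.5% of all tested genes in mean level, and IFIH1 above 64.9%.

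DHX58 (ENSG00000108771, chromosome 17) encodes LGP2, a helicase without the signalling domains of the other sensors that modulates their activity. Its level was 4.91, 4.77 and 5.87 FPKM in overexpressing cells, against 3.30, 4.89 and 2.83 FPKM in control cells. Control replicate 2 lay within the overexpression values, so the groups overlapped. The log2 fold change was 0.42 (SE 0.16, 95% interval 0.06 to 0.79, limma adjusted p = 0.312). It was 0.60 without control replicate 2 and 0.29 without control replicate 3.

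TLR3 (ENSG00000164342, chromosome 4), the endosomal receptor for double-stranded RNA, was at 4.47, 4.88 and 6.79 FPKM in overexpressing cells, against 4.07, 4.21 and 4.05 FPKM in control cells. All overexpression values were above control, and most of the difference lay in overexpression replicate 3. The log2 fold change was 0.30 (SE 0.14, 95% interval -0.0034 to 0.61, limma adjusted p = 0.394), and 0.15 without overexpression replicate 3.

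Promoter sequences of 6 of the 10 genes were matched by symbol in a RefSeq table (GRCh38.p14), and 4 of them are shown because they belong to the sensors whose groups did not overlap and to IRF1, a known target of interferon gamma. Each line runs 5′ to 3′ along the gene's strand from 200 bases before the RefSeq start to 10 bases from it. Capitals mark matches to the core of the interferon-stimulated response element (ISRE), GAAANNGAAA on either strand, or to the gamma-activated sequence (GAS), TTCNNNGAA, which reads the same on both strands. The 4 windows are chr2:162318675-162318884 on the minus strand for IFIH1, chr9:32526187-32526396 on the minus strand for DDX58, chr4:186068956-186069165 on the plus strand for TLR3 and chr5:132490764-132490973 on the minus strand for IRF1.
IFIH1: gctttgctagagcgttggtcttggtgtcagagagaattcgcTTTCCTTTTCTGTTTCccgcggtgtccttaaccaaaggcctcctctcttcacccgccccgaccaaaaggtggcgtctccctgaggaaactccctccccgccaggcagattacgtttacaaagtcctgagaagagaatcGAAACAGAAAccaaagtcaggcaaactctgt
DDX58: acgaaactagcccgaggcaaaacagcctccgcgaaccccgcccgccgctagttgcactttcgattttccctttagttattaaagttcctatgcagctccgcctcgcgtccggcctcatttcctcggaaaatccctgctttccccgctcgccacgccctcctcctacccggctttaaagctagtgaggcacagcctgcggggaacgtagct
TLR3: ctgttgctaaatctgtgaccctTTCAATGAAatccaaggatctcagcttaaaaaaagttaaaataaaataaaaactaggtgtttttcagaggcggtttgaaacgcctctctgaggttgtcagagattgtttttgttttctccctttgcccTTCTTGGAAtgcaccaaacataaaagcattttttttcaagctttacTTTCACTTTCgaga
IRF1: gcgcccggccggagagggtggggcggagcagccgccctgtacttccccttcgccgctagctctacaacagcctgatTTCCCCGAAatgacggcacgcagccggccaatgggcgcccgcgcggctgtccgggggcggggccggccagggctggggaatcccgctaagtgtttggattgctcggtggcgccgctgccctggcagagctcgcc

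The search covered 300 bases per gene, 250 before the start and 50 from it, counting the start as 1 and the base before it as -1. IFIH1 held the ISRE core once as printed, at -21 to -12, and as an overlapping pair on the opposite strand, at -159 to -150 and -153 to -144. TLR3 held it once on the opposite strand across the start, at -4 to 6, and held the GAS letters at -178 to -170 and -50 to -42. IRF1 held no ISRE core and 1 GAS match, at -124 to -116. In the windows of DDX58, MAVS and TBK1 neither set of letters occurred. The ISRE core was present in 3.65% of 27305 promoters in the table, 1 per gene, and the GAS letters in 7.88%. Of 21 matched promoters of the IRF and ISGF3 target genes described below, 15 held the ISRE core. Of all tested genes with a matched promoter, 254 held it, with 9 called higher, 0 lower and a median log2 fold change of 0.05, and 9192 did not, with 18 called higher, 11 lower and a median of -0.0006. Tested target genes with a matched promoter are counted in this split. They were chosen with earlier results of these data known, so the split is no independent evidence. A match of letters is a description and not a site of binding.

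MAVS (ENSG00000088888, chromosome 20), the mitochondrial adaptor of both signalling helicases, was at 26.29, 25.36 and 27.00 FPKM in overexpressing cells, against 26.78, 27.07 and 27.13 FPKM in control cells. The groups overlapped and all 6 values lay within a narrow range. Its log2 fold change was -0.04 (SE 0.06, limma adjusted p = 0.821), from -0.06 to -0.02 with 1 library left out, and the 95% interval, -0.17 to 0.08, bounds the difference more tightly than for any other tested member. TBK1 (ENSG00000183735, chromosome 12), the kinase that activates IRF3 and IRF7, was at 12.19, 14.05 and 15.38 FPKM in overexpressing cells, against 12.47, 12.70 and 13.55 FPKM in control cells. Overexpression replicate 1 was the lowest of the 6 libraries and replicate 3 the highest. The log2 fold change was 0.09 (SE 0.09, 95% interval -0.11 to 0.30, limma adjusted p = 0.735), and with 1 library left out it ran from 0.02 (without overexpression replicate 3) to 0.18 (without overexpression replicate 1).

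IRF3 (ENSG00000126456, chromosome 19), the factor present before infection and activated by phosphorylation, was at 67.57, 60.44 and 62.57 FPKM in overexpressing cells, against 71.69, 66.33 and 60.70 FPKM in control cells. The groups overlapped, and the log2 fold change was -0.06 (SE 0.07, 95% interval -0.22 to 0.0999, limma adjusted p = 0.789). IRF7 (ENSG00000185507, chromosome 11), the factor whose own gene interferon induces in many cells, was the least abundant member, at 0.69, 0.86 and 0.51 FPKM in overexpressing cells, against 0.56, 0.34 and 0.18 FPKM in control cells. It fell short of the mean of 1 FPKM that the test required. Its lowest overexpression value was below the highest control value, so the groups overlapped. With no filter on low values its log2 fold change was 0.31 (SE 0.12, 95% interval 0.02 to 0.61, limma adjusted p = 0.424), and it did not pass.

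IRF1 (ENSG00000125347, chromosome 5), an activator that interferon gamma induces strongly, was at 48.85, 42.42 and 48.44 FPKM in overexpressing cells, against 43.31, 43.81 and 44.84 FPKM in control cells. Overexpression replicate 2 was the lowest library of the 6 and the other two overexpression values were above control. The log2 fold change was 0.08 (SE 0.06, 95% interval -0.07 to 0.22, limma adjusted p = 0.667), and ran from 0.04 without overexpression replicate 1 to 0.14 without overexpression replicate 2. IRF2 (ENSG00000168310, chromosome 4), which competes with IRF1 for the same DNA element, was at 6.17, 8.45 and 8.61 FPKM in overexpressing cells, against 7.67, 7.61 and 6.64 FPKM in control cells. Its log2 fold change was 0.06 (SE 0.13, 95% interval -0.22 to 0.35, limma adjusted p = 0.876) and took the other sign, -0.0107, without overexpression replicate 3. The sign of the IRF3 difference likewise gave way to 0.0001 without control replicate 1.

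**Figure D2:**
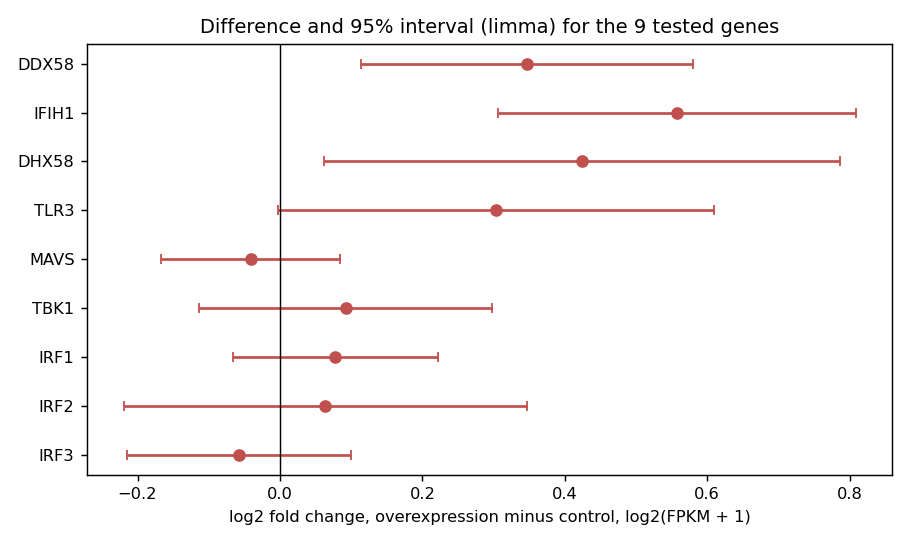
Log2 fold change (x axis, overexpression minus control on the log2(FPKM + 1) scale) with its 95% interval from limma for the 9 tested genes. The intervals of IFIH1, DDX58 and DHX58 lie above 0 before adjustment over all genes, that of TLR3 reaches -0.0034, and the other 5 span 0.

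Some members share sequence with a neighbour on the opposite strand in the GENCODE 29 annotation. C5orf56 overlaps 22.0% of the merged exons of IRF1, BCL2L12 overlaps 19.3% of those of IRF3, and the antisense gene AC135279.3 overlaps 14.7% of those of TBK1. BCL2L12, a BCL2 family gene, was at 62.18, 72.06 and 66.10 FPKM in overexpressing cells, against 65.64, 65.41 and 59.57 FPKM in control cells, about as high as IRF3 itself. C5orf56 was at 9.70, 8.13 and 9.38 FPKM in overexpressing cells, against 7.54, 9.71 and 7.90 FPKM in control cells. The labels name a stranded kit, but the sources used here do not say whether the counting used strand, so the levels of IRF1, IRF3 and TBK1 are less certain than those of the other members.

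The order of the members by mean level differed between the groups at its top. In overexpressing cells DDX58 stood first, with its lowest library (74.62 FPKM) above the highest of IRF3 (67.57 FPKM), whereas in control cells IRF3 and DDX58 had overlapping ranges, 60.70 to 71.69 FPKM and 59.45 to 69.55 FPKM. IFIH1 overlapped IRF1 in overexpressing cells, and in control cells it lay below IRF1 and overlapped MAVS. TBK1 and IRF2 followed in both groups, and IRF2 overlapped TLR3 in overexpressing cells but not in control cells. TLR3 and DHX58 overlapped each other in both groups, and IRF7 was last in both, apart from every other member.

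A ratio of members within a library does not depend on how that library was scaled, and 5 such ratios were computed, chosen after the values of the members were seen. The ratio of IFIH1 to DDX58 was 0.509, 0.483 and 0.516 in overexpressing cells, against 0.452, 0.424 and 0.418 in control cells. All overexpression ratios were above the control ratios, as they were for IFIH1 to MAVS (1.49, 1.42 and 1.89, against 1.00, 1.03 and 1.07 in control cells) and for DDX58 to MAVS (2.92, 2.94 and 3.66, against 2.22, 2.43 and 2.56 in control cells). A two-sided exact permutation test of 3 libraries against 3 gave p = 0.1 for each of these, the smallest it can give, and 0.167 after adjustment over the 5 ratios. The ratio of DHX58 to DDX58 averaged 0.0625 ± 0.0026 in overexpressing cells and 0.0568 ± 0.0169 in control cells, and that of IRF1 to IRF2 averaged 6.19 ± 1.53 in overexpressing cells and 6.05 ± 0.609 in control cells (SD, n = 3 each). Both overlapped between the groups, at an exact permutation p of 0.7 and 1.0.

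**Figure D3:**
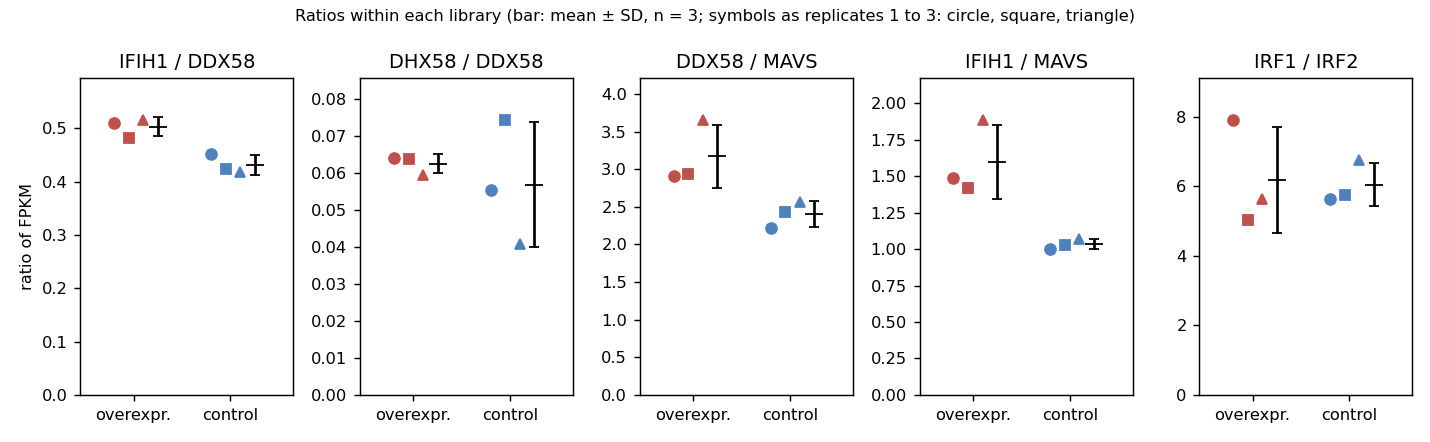
Ratio of FPKM (y axes, each from 0) for 5 pairs of members in the overexpression libraries (red, left) and control libraries (blue, right), with mean and SD of 3 libraries. The red points lie above the blue ones for IFIH1 over DDX58, DDX58 over MAVS and IFIH1 over MAVS, and overlap them for DHX58 over DDX58 and IRF1 over IRF2.

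The 3 overexpression libraries were unequal. Overexpression replicate 3 held the highest value of all 6 libraries for 6 of the 9 tested members, as it did for 15.2% of all tested genes. Averaged over DDX58, IFIH1, DHX58 and TLR3, a grouping made after their values were seen, log2(FPKM + 1) exceeded the control mean by 0.29, 0.27 and 0.66 in overexpression replicates 1 to 3, and the control libraries deviated by -0.07, 0.10 and -0.03. On average the 25 tested target genes exceeded it by 0.61, 0.46 and 0.95 in overexpression replicates 1 to 3. The mean of the other 5 tested members deviated by -0.03, 0.0077 and 0.10. Single genes among them varied more, with IRF2 at -0.21, 0.19 and 0.21. Without overexpression replicate 3 the log2 fold change was 0.41 for IFIH1, 0.22 for DDX58 and 0.35 for DHX58.

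**Figure D4:**
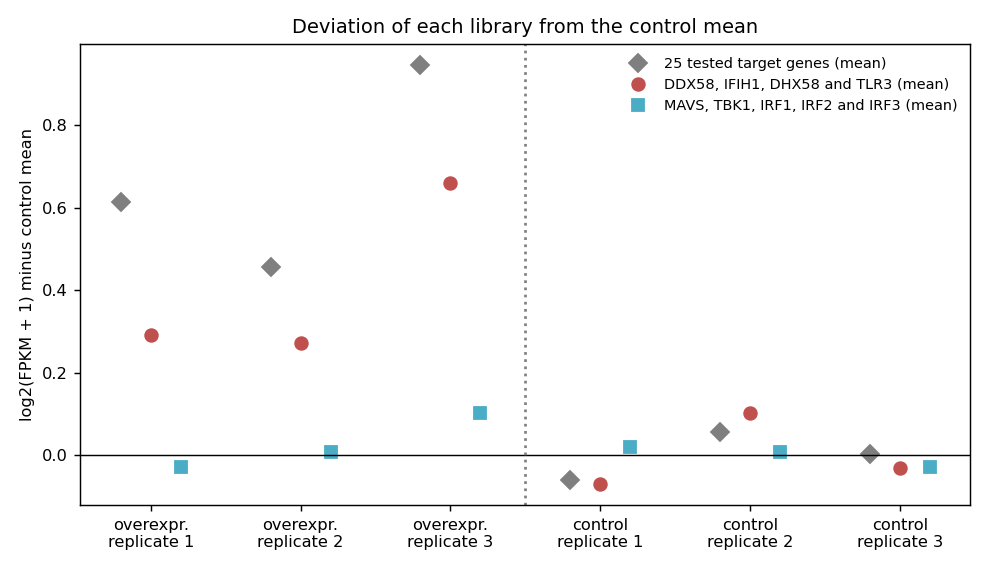
Mean of log2(FPKM + 1) minus the control mean (y axis) in each of the 6 libraries for 25 target genes, for the sensors DDX58, IFIH1, DHX58 and TLR3, and for the other 5 tested members. The means of the sensors and the targets are highest in overexpression replicate 3, at 0.66 and 0.95. The mean of the other members stays between -0.03 and 0.10.

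The genes around these members were read from the same fit. Among other nucleic acid sensors and their partners, 0 of 16 tested passed in limma, with 4 higher and 0 lower at an unadjusted p of 0.05, beside 5.79% of all tested genes higher and 6.92% lower, and a median log2 fold change of -0.0092. IFIT5, which binds RNA with a triphosphate end, had the lowest p, at 60.5 ± 8.67 FPKM in overexpressing cells and 44.7 ± 2.61 FPKM in control cells (limma adjusted p = 0.102), followed by ZC3HAV1, the antiviral zinc finger protein ZAP, at 29.1 ± 1.89 FPKM in overexpressing cells and 24.0 ± 1.22 FPKM in control cells (limma adjusted p = 0.145). The DNA sensor CGAS was listed at no more than 0.09 FPKM in any library, with all overexpression values above control. IFI16, another DNA sensor, was at 89.14, 101.16 and 125.38 FPKM in overexpressing cells, against 76.87, 81.84 and 89.13 FPKM in control cells. All IFI16 values of overexpressing cells lay above control, and it did not pass (limma adjusted p = 0.257). STING1, the adaptor of CGAS, was at 17.41, 18.52 and 19.66 FPKM in overexpressing cells, against 20.95, 21.10 and 19.79 FPKM in control cells. All STING1 values of overexpressing cells lay below control, and it did not pass (log2 fold change -0.15, limma adjusted p = 0.413). CGAS, IFI16 and STING1, like the cell markers other than GFAP and SOX2, were named after their values were seen.

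Of 19 tested adaptors and kinases, 0 passed in limma, beside 0.521% of all tested genes. At an unadjusted p of 0.05 there were 0 as well, beside 12.7% of all tested genes. TRAF5, a TNF receptor adaptor, was at 3.60 ± 0.0651 FPKM in overexpressing cells and 4.43 ± 0.638 FPKM in control cells, and TICAM1, which encodes the TLR3 adaptor TRIF, was at 19.6 ± 0.723 FPKM in overexpressing cells and 18.05 ± 0.631 FPKM in control cells (limma adjusted p = 0.433 and 0.513). Of 13 tested positive regulators 0 passed in limma, with 2 higher at an unadjusted p of 0.05 (5.79% of all tested genes). These were HSP90AA1, a chaperone that binds TBK1, at 533 ± 38.9 FPKM in overexpressing cells and 467 ± 26.5 FPKM in control cells, and TRIM25, the ubiquitin ligase of RIG-I signalling, at 69.3 ± 3.11 FPKM in overexpressing cells and 59.5 ± 6.01 FPKM in control cells (limma adjusted p = 0.269 for both). Of 23 tested negative regulators 0 passed in limma, with 6 higher and 0 lower at an unadjusted p of 0.05, beside 5.79% and 6.92% of all tested genes. SAMHD1, a nucleotide hydrolase that limits DNA sensing, was at 109 ± 10.4 FPKM in overexpressing cells and 83.6 ± 2.42 FPKM in control cells (log2 fold change 0.38, limma adjusted p = 0.0513, and 0.0236 to 0.180 over the alternatives), and PNPT1, which degrades mitochondrial double-stranded RNA, was at 29.02 ± 3.34 FPKM in overexpressing cells and 22.6 ± 2.16 FPKM in control cells (limma adjusted p = 0.164). Of 5 tested genes among other IRFs and partners of IRF2, 0 passed in limma and 1 was lower at an unadjusted p of 0.05 (6.92% of all tested genes). This was IRF2BPL, at 28.2 ± 0.272 FPKM in overexpressing cells and 31.4 ± 0.509 FPKM in control cells (limma adjusted p = 0.281). IRF2BP2, a corepressor of IRF2, was at 56.1 ± 3.62 FPKM in overexpressing cells and 51.6 ± 5.19 FPKM in control cells (limma adjusted p = 0.578).

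The listed genes of the interferon family stood at or near 0. None of 21 listed interferon genes reached the level required for a test, 10 were at 0 in every library, and the highest value of any was 0.52 FPKM. IFNB1, the interferon that IRF3 and IRF7 induce first, was at 0.49, 0.29 and 0.28 FPKM in overexpressing cells, against 0.13, 0.19 and 0 FPKM in control cells. Every overexpression value was above control, and all 6 were below the mean of 1 FPKM required for a test. IFNE was at 0.28, 0.37 and 0.42 FPKM in overexpressing cells, against 0.27, 0.37 and 0.52 FPKM in control cells. The remaining 9 of the 11 listed above 0 in any library, IFNA1, IFNA5, IFNA6, IFNA8, IFNA13, IFNA14, IFNA21, IFNW1 and IFNL1, reached at most 0.21 FPKM. The 21 genes together summed to 0.98, 0.90 and 0.83 FPKM in overexpressing cells, against 0.49, 0.76 and 0.87 FPKM in control cells. They were listed by family, IFNE and IFNG among them, so the sum is not a measure of this pathway alone.

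The targets of IRFs and of the interferon-activated complex ISGF3 formed the list with calls. Of 25 tested, 15 were higher in limma and 0 lower, beside 0.316% and 0.205% of all tested genes, and 10 did not pass. The median log2 fold change of the 25 was 0.63, beside 0.09 for the 9 tested members. The 15 were RSAD2, OAS2, OAS1, CMPK2, IFI27, MX2, TAP1, OAS3, MX1, ISG15, IFI6, IFIT1, USP18, PSMB9 and OASL, with log2 fold changes between 0.52 (OAS3) and 1.40 (RSAD2). All 25 tested targets had overexpression values above all control values, beside 8.81% of all tested genes. The listed targets CXCL10 and CXCL11 fell short of the mean of 1 FPKM required for a test, and their groups overlapped. CXCL10 averaged 0.777 FPKM in overexpressing cells and 0.48 FPKM in control cells, and CXCL11 averaged 0.217 and 0.17 FPKM. This list was chosen with earlier results of these data known, so its direction is no independent evidence. The largest log2 fold change of any tested member, 0.56 for IFIH1, lay below the median of the targets. IRF7, which was not tested, averaged 0.687 FPKM in overexpressing cells and 0.36 FPKM in control cells, with overlapping groups. With 1 control library left out, with no filter on low values, or with no trend in limma, the number of targets that passed was 0. Without overexpression replicate 1 it was 1, without overexpression replicate 2 it was 16 and without overexpression replicate 3 it was 7. It was highest with array quality weights, at 20.

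**Figure D5:**
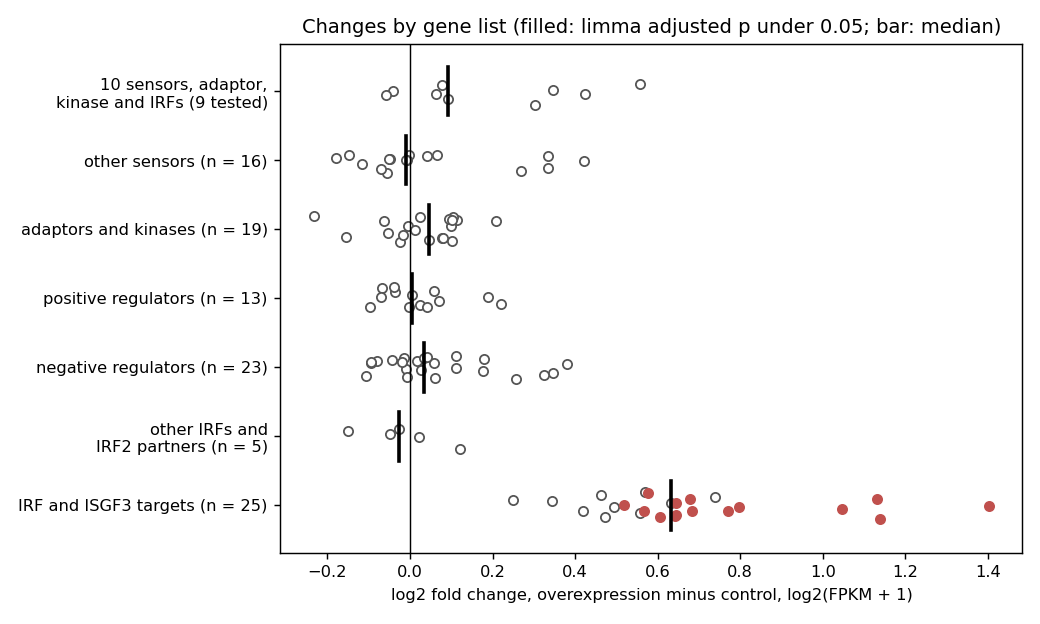
Log2 fold change (x axis, overexpression minus control, log2(FPKM + 1)) of each tested gene in the members and 6 fixed lists, with the median of each list as a bar and genes past a limma adjusted p of 0.05 filled. Filled points occur among the 25 targets, whose median is 0.63, and the medians of the other lists lie between -0.03 and 0.09.

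The genes whose pattern was most like that of IFIH1, the member with the lowest p, were found by Pearson's correlation of log2(FPKM + 1) over the 6 libraries. The 5 with the highest values were DSP (r = 0.996), GMPR (0.993), MX2 (0.992), IFIT3 (0.991) and CMPK2 (0.991). These values share the difference between the groups and the same 6 libraries, and are given as a description. MX2 and CMPK2 passed the test, and DSP, which encodes the junction protein desmoplakin, averaged 6.68 FPKM in overexpressing cells and 4.79 FPKM in control cells without passing (limma adjusted p = 0.160).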

How the data were processed

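RNA sequencing was made from 6 U251 libraries, 3 per group, grouped by their titles. Per the labels' protocols the libraries were stranded and poly(A)-selected, whereas the series' design text describes cytoplasmic RNA without that selection. Per the submitters' processing notes, edgeR, RSEM 1.3.1, Cufflinks 2.2.1, Bowtie and TopHat were used with the build hg18, and no role is given for each. The authors deposited FPKM per gene, rounded to 2 decimals, and no read totals. Depth was therefore estimated only relative to control replicate 2, by a method tested on simulated data with whole read counts. Whether the deposited FPKM rest on whole read counts is not stated, so the depths are approximate. Between 68 and 591 assembled loci per table were not used.

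Groups were compared on log2(FPKM + 1) as deposited with limma 3.58.1 in R 4.3.3, with a trend, no term but the group, two-sided p-values and Benjamini-Hochberg correction over the 11704 Ensembl genes with a mean of at least 1 FPKM. The fit was tested on simulated data. Fold changes on this scale understate those of low genes. Other values came from Python 3.11.15, pandas 2.3.3 and numpy 2.4.6. Symbols came from a table that matched 19447 of 20330 identifiers, and chromosomes and exon overlaps from GENCODE 29 (GRCh38), whose coordinates are not used with these tables.

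The members and lists were chosen with earlier results of these data known. Named genes are the members, called genes of each list or else its 2 lowest p, interferon genes above 0, and the 5 genes most like the member of lowest p. EGFR, VIM, NES, PTPRC, P2RY12, CDH5, CD14, TYROBP, CGAS, IFI16, STING1, CXCL10, CXCL11 and the neighbours of members fall outside this rule. They were named after their values were seen. IKBKE, IKBKG, ZCCHC3, CCL5 and PECAM1 were not analysed here. The alternatives tried were TPM scaling, quantile normalization, pseudocounts of 0.1 and 0.5, no filter, a mean of at least 5 FPKM, no trend, array quality weights, a replicate block and each library left out.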

Additional observations from a re-analysis of the deposited data

How the results depend on the processing

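Over 15 alternatives, 130 of 133 values of single members kept their sign and their side of the threshold. The exceptions were IFIH1, which passed with array quality weights (log2 fold change 0.61, limma adjusted p = 0.0285), IRF2 at -0.0107 without overexpression replicate 3 and IRF3 at 0.0001 without control replicate 1, and their cause was not tested. With 1 library left out, the log2 fold change ran from -0.0107 to 0.20 for IRF2 and from -0.12 to 0.0001 for IRF3. The number of called members was 1 with array quality weights and 0 in the other settings. Called genes overall numbered 1 with low genes kept, 1 with no trend in limma, 196 with array quality weights and 19 with the replicate block, of which 15 were among the 61, and between 1 and 60 with 1 library left out. Called genes of the 6 fixed pathway lists and the interferons numbered 9 under quantile normalization, 0 with low genes kept, 0 with no trend, 23 with array quality weights and 7 with the replicate block, and between 0 and 16 with 1 library left out, against 15 in the main setting. The median of the tested members ran from 0.0486 to 0.20 with 1 library left out. Same-numbered libraries correlated at -0.0399, -0.0564 and 0.0490 in their deviations from the group means, so the numbers were not taken to pair the libraries. The 3 libraries per group and FPKM without read totals limit the precision, most for DHX58, TLR3, IRF7 and the interferon genes.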
